A study of Homo sapiens with 4 samples.

Results

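The genes described are 10 members of the YAP/TAZ and Hippo pathway, found by matching feature names in the deposited tables: *YAP1*, *WWTR1*, *CYR61*, *CTGF*, *ANKRD1*, *AMOTL1*, *AMOTL2*, *AJUBA*, *LATS1* and *LATS2*. All 10 of 10 names occurred among 20457 listed features, and all 10 had a mean of at least 1 TPM, the minimum for testing that 14208 features passed. TPM is transcript abundance per length, scaled to a fixed sum in each library. *CYR61* and *CTGF* are older symbols of *CCN1* and *CCN2*. The libraries were poly(A)-selected RNA of HEK293, an established line from human embryonic kidney, labelled wild type in the control group and CNOT4 knockdown in the other. Of the 4 libraries, 2 came from cells given a negative control siRNA (siControl) and 2 from cells given siRNA against *CNOT4* (siCNOT4), each at 10 nM for 72 h. *CNOT4* encodes a ubiquitin ligase associated with the CCR4-NOT deadenylase, and the study asked about its part in codon-usage effects on expression. Both groups received siRNA, and the labels do not say whether the replicates were separate cultures, so the tests measure the spread between these libraries only, which may be technical.

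YAP1 and TAZ (the product of *WWTR1*) are transcriptional coactivators that enter the nucleus and bind TEAD factors to drive genes such as *CYR61*, *CTGF* and *ANKRD1*. The LATS1 and LATS2 kinases, activated by the Hippo kinases MST1 and MST2 (*STK4* and *STK3*), phosphorylate both coactivators and keep them in the cytoplasm. Angiomotin family proteins (AMOTL1 and AMOTL2) hold YAP1 and TAZ at junctions and actin, and the LIM protein AJUBA restrains LATS kinases. In cultured epithelial cells, crowding and a soft or relaxed cytoskeleton lower the transcription of the targets, whereas spreading and tension raise it. RNA levels report the target genes' output but not the phosphorylation or location of YAP1 and TAZ. In bulk RNA, fewer cells making a transcript and less RNA per cell cannot be told apart.

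The letters that TEAD factors recognise were located in the 250 bases before each annotated start, to show where the canonical targets carry them. The motif searched was GGAATG, on both strands (reverse complement CATTCC). RefSeq promoter windows (GRCh38.p14) were given for 9 of the 10 genes (13 windows), all but *CYR61*. The motif occurred in 1 window each of *YAP1*, *CTGF*, *ANKRD1*, *AMOTL2* and *AJUBA*, and in 11.9% of all 35116 windows. That share is per window, and *AMOTL2* and *AJUBA* each also had a window without the motif. The *CTGF* window held 3 matches, a number that 0.0826% of windows reached, and the *ANKRD1* window held 2, reached by 0.94%. The longer form ACATTCCA (reverse complement TGGAATGT) was in 1.01% of all windows and in 0 of the 13. The *CTGF* window and 30-base stretches around the matches of *ANKRD1* and *AJUBA* are given 5′ to 3′ on the strand of the gene, with the motif in capitals. They lie at chr6:131951373-131951622 for *CTGF*, at chr10:90921290-90921319 and chr10:90921198-90921227 for *ANKRD1* and at chr14:22976884-22976913 for *AJUBA*, all on the minus strand. The *AJUBA* match precedes an internal start and lies in an exon of a longer annotated transcript. Of the *ANKRD1* matches, the second lies within the first exon that GENCODE 29 annotates. These matches are letters in a window and were not tested for binding.
CTGF: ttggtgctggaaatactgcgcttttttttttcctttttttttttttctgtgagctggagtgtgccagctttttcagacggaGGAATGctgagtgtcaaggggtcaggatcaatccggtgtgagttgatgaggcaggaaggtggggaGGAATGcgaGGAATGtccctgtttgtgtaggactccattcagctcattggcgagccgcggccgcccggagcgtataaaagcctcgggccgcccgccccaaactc
ANKRD1 first match: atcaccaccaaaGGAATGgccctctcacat
ANKRD1 second match: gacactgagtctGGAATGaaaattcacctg
AJUBA: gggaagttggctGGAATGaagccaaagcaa

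The libraries differed in ways that touch every gene below. Steps in the lowest values placed the depth at about 32.4 to 34.5 per library in units of 1000000 reads. The median difference over the 14208 tested features, on the log2(TPM + 1) scale, was 0.50 for siCNOT4 over siControl and -0.38 for siControl replicate 2 over replicate 1, against 0.03 between the siCNOT4 replicates. Of all TPM, the top 100 features held 33.1% and 39.8% in the controls, compared with 26.6% and 25.5% after knockdown. Values are therefore given as deposited and after a scaling by the trimmed mean of M values (TMM) that brought the median difference between groups to 0.01. The targeted transcript had 6.43 and 4.73 TPM in siControl and 3.38 and 3.81 TPM in siCNOT4, lower without overlap (change -0.51, limma adjusted p 0.184). *CNOT4* was called lower after TMM scaling (-0.95, limma adjusted p 0.0359), quantile normalization (-1.15, 0.0252) and trend removal (-1.30, 0.013). Of 5 markers of HEK293, 4 reached 1 TPM in every library, *NEFL* at 307 to 384 TPM. Of 12 markers of blood, fibroblast, endothelium, keratinocyte and hepatocyte, all were below 1 TPM in every library except *LUM*, at 0.182 and 0.225 TPM in siControl and 3.75 and 2.67 TPM in siCNOT4. Summed, these markers gave 1.01 to 1.28 TPM for siControl libraries against 4.62 to 5.32 TPM for siCNOT4 libraries, and without *LUM* 0.788 to 1.10 TPM against 1.57 to 1.94 TPM. *CD3E* and *CDH5* were each at 0 in 3 libraries. Their part in the results was not tested.

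None of the 10 genes passed the test between siCNOT4 and siControl for TPM as deposited. The test was limma on log2(TPM + 1), with Benjamini-Hochberg adjustment over all features and a threshold of 0.05. It called 0 of the 10 genes, against 12.6% of all tested features (1792 of 14208). An unadjusted limma p under 0.05 was found for 1 of the 10 (*LATS1*), beside 5974 of the 14208 features. The log2 fold changes ranged from -0.67 (*AJUBA*) to 1.25 (*LATS1*), with a median of 0.24 against 0.50 for all features. Both siCNOT4 libraries lay above both siControl libraries for 6 genes, beside 66.4% of all features, and below them for 1 gene, beside 10.6%. Groups overlapped for *YAP1*, *CTGF* and *AMOTL2*. After TMM scaling 1 gene was higher without overlap (35.3% of all features) and 3 were lower (34.4%), while 6 overlapped. *AJUBA* was then called, 1 of 10 beside 8.78% of features. Quantile normalization called *AJUBA* and *CTGF* (15.3% of features), and removal of each library's trend with transcript length and GC content called *AJUBA* (25.4%).

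**Figure D1:**
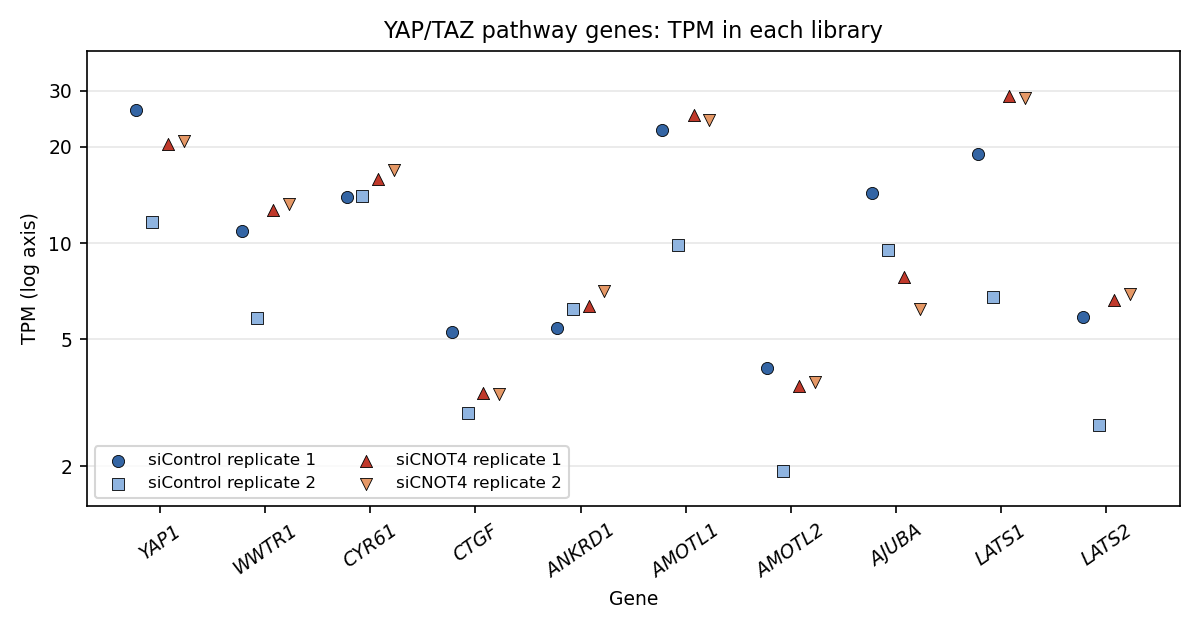
TPM (log axis) of the 10 genes in each of the 4 libraries, 1 point per library. siControl replicate 2 is the lowest point for 7 of the genes.

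*YAP1*, the coactivator, had 26.1 and 11.6 TPM in siControl replicates 1 and 2, and 20.4 and 20.9 TPM in siCNOT4. Both knockdown libraries fell between the controls, which differed 2.24-fold. The fold change was 0.23 on the log2(TPM + 1) scale (SE 0.39, 95% interval -0.72 to 1.18, limma adjusted p 0.666). After TMM scaling it was -0.29, so its sign followed the scaling. It also followed the control library: 0.78 without siControl replicate 1 and -0.32 without replicate 2, fits in which the spread rests on the siCNOT4 pair. *WWTR1*, which encodes TAZ, was at 10.9 and 5.83 TPM in siControl and at 12.7 and 13.3 TPM in siCNOT4. These groups did not overlap as deposited, and siControl replicate 2 was again the lowest. The fold change was 0.64 (SE 0.35, interval -0.21 to 1.48, adjusted p 0.200), and 0.14 after TMM scaling. As deposited it was 1.04 without siControl replicate 1 and 0.23 without replicate 2. *YAP1* was thus the more abundant of these coactivators per length in each library. The ratio of *WWTR1* to *YAP1*, which does not move with the scaling of a library, stood at 0.419 and 0.500 in the controls, and at 0.622 and 0.638 after knockdown. It was higher without overlap in siCNOT4, by 0.46 on the log2 scale. With 2 libraries a group, exact permutation (two-sided) cannot go below p = 0.333, which this ratio reached; adjusted over the 5 ratios computed it was 0.416.

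*CYR61* and *CTGF* encode secreted matricellular proteins of 1 family and are the most used readouts of YAP and TAZ activity. *CYR61* had 13.9 and 14.0 TPM in siControl and 15.9 and 16.9 TPM in siCNOT4. The 4 values spanned a narrow range, and siCNOT4 was higher without overlap. Its fold change was 0.22 (SE 0.25, interval -0.39 to 0.82, adjusted p 0.515), and -0.30 after TMM scaling, where both siCNOT4 libraries were lower (13.3 and 13.8 against 14.4 and 19.8 scaled TPM). *CTGF* was at 5.27 and 2.93 TPM in siControl and at 3.39 and 3.36 TPM in siCNOT4. The knockdown libraries lay between the controls as deposited. At about 96 to 160 reads per library, the 95% Poisson intervals for siControl ran from 4.48 to 6.15 TPM (replicate 1) and from 2.39 to 3.56 TPM (replicate 2). Those for siCNOT4 ran from 2.75 to 4.13 TPM and from 2.72 to 4.10 TPM. These intervals cover counting error only. For TPM as deposited, counting error alone thus did not separate siControl replicate 2 from the siCNOT4 libraries.

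The fold change of *CTGF* was -0.18 (SE 0.30, interval -0.90 to 0.54, adjusted p 0.649) as deposited. After TMM scaling the libraries held 5.44 and 4.15 scaled TPM in siControl and 2.85 and 2.73 in siCNOT4, lower without overlap. The change was then -0.60 with an adjusted p of 0.086, and under quantile normalization it was -0.81 with 0.0361. Without siControl replicate 1 the change in TPM as deposited was 0.15, and without siControl replicate 2 it was -0.52. The call for *CTGF* therefore depended on the scaling, while its direction was negative under each scaling and turned only without siControl replicate 1. *ANKRD1*, a muscle ankyrin repeat protein and a target in many cell types, had 5.43 and 6.23 TPM in siControl and 6.36 and 7.06 TPM in siCNOT4. Its change was 0.18 (SE 0.26, interval -0.46 to 0.81, adjusted p 0.616) as deposited and -0.30 after TMM scaling. Relative to the median of all features, the changes were -0.28 for *CYR61*, -0.68 for *CTGF* and -0.32 for *ANKRD1*.

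*CTGF* and *CYR61* were also set against the coactivator within each library. *CTGF* over *YAP1* stood at 0.202 and 0.252 in the controls, and at 0.166 and 0.161 after knockdown, lower without overlap by 0.47 on the log2 scale (exact permutation p = 0.333). *CYR61* over *YAP1* stood at 0.535 and 1.20 in the controls, and at 0.777 and 0.810 after knockdown, with the knockdown libraries between the controls (difference -0.02, exact permutation p = 1). A difference between these ratios was not tested. Without siControl replicate 1 both were lower in siCNOT4 (-0.62 for *CTGF* and -0.60 for *CYR61*), and without replicate 2 they were -0.31 and 0.57. The transcripts differ in length, and once that trend with length and GC content was taken out the changes of *CTGF* and *YAP1* were close, at -0.56 and -0.48. *CYR61* was the most abundant of the 3 targets in each library, and *CTGF* the least, although its counting interval reached the 5.43 TPM of *ANKRD1* in siControl replicate 1.

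Angiomotin family members bind YAP1 and TAZ directly, and *AMOTL2* is itself a target. *AMOTL1* had 22.6 and 9.88 TPM in siControl and 25.1 and 24.2 TPM in siCNOT4. siControl replicate 2 was 2.29-fold below replicate 1, while siCNOT4 averaged 1.09-fold replicate 1. The change was 0.68 (SE 0.40, interval -0.28 to 1.64, adjusted p 0.225), and 0.16 after TMM scaling. As deposited it was 1.24 without siControl replicate 1 and 0.12 without replicate 2. *AMOTL2* was at 4.07 and 1.94 TPM in siControl and 3.56 and 3.67 TPM in siCNOT4, so that the groups overlapped. Its change was 0.26 (SE 0.31, interval -0.50 to 1.02, adjusted p 0.537), and -0.15 after TMM scaling. As deposited the change was 0.65 without siControl replicate 1 and -0.14 without replicate 2. *AMOTL1* over *AMOTL2* stood at 5.56 and 5.10 in the controls, and at 7.05 and 6.58 after knockdown, higher without overlap by 0.36 on the log2 scale (exact permutation p = 0.333). These transcripts differ in length (8970 and 4521 nt), and after trend removal the changes were closer, at -0.06 for *AMOTL1* and -0.23 for *AMOTL2*. The founding member *AMOT*, looked at after its values were seen, had 68.3 and 35.5 TPM in siControl and 31.2 and 31.1 TPM in siCNOT4. Its change was -0.65 (adjusted p 0.172) as deposited, and -1.18 (limma adjusted p 0.0373) after TMM scaling. Without siControl replicate 1 the change as deposited was -0.19, and without replicate 2 it was -1.11.

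*AJUBA* encodes a LIM-domain scaffold that binds LATS kinases and also sits at adherens junctions. It had 14.3 and 9.53 TPM in siControl and 7.81 and 6.24 TPM in siCNOT4. It was the only 1 of the 10 genes for which both siCNOT4 libraries lay below both controls as deposited. The ratio of group means was 0.591, from 11.9 ± 3.34 to 7.02 ± 1.11 TPM (SD, n = 2 each). The fold change was -0.67 (SE 0.31, interval -1.43 to 0.09) with a limma adjusted p of 0.152, and 345 of 14208 features had a lower one. Relative to the median of all features the change was -1.17. After TMM scaling the libraries held 14.7 and 13.5 scaled TPM in siControl and 6.56 and 5.07 in siCNOT4, and the difference exceeded the spread between replicates in both groups. *AJUBA* then fell by 1.16 (interval -1.62 to -0.70, limma adjusted p 0.0348). It also fell under quantile normalization, by 1.28 (adjusted p 0.0257), and after trend removal, by 1.19 (0.0133). Without siControl replicate 1 the change as deposited was -0.40, and without siControl replicate 2 it was -0.93.

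LATS1 and LATS2 are the kinases that phosphorylate YAP1 and TAZ. *LATS1* had 19.0 and 6.80 TPM in siControl and 28.9 and 28.5 TPM in siCNOT4. Both knockdown libraries were above both controls, but the controls themselves differed 2.79-fold, the widest gap among the 10 genes. The ratio of group means was 2.23, and the mean of siCNOT4 was 1.51-fold siControl replicate 1 and 4.22-fold siControl replicate 2. The fold change was 1.25 (SE 0.45, interval 0.15 to 2.35), with an unadjusted p of 0.0317 and a limma adjusted p of 0.094. After TMM scaling it was 0.74 (adjusted p 0.166), and after trend removal 0.35 (0.196). Without siControl replicate 2 the value as deposited was 0.57, and without siControl replicate 1 it was 1.93, both with the spread of the siCNOT4 pair alone.

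*LATS2*, which is both a kinase of the pathway and one of its targets, was at 5.86 and 2.69 TPM in siControl and at 6.62 and 6.91 TPM in siCNOT4. Its change was 0.63 (SE 0.36, interval -0.23 to 1.49, adjusted p 0.213), and 0.18 after TMM scaling. As deposited it was 1.07 without siControl replicate 1 and 0.18 without replicate 2. *LATS1* exceeded *LATS2* per length in each library. *LATS2* over *LATS1* stood at 0.309 and 0.395 in the controls, and at 0.230 and 0.242 after knockdown, lower without overlap by 0.57 on the log2 scale (exact permutation p = 0.333). Here too the transcripts differ in length (5511 and 7517 nt), and after trend removal the changes were 0.01 for *LATS2* and 0.35 for *LATS1*.

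**Figure D2:**
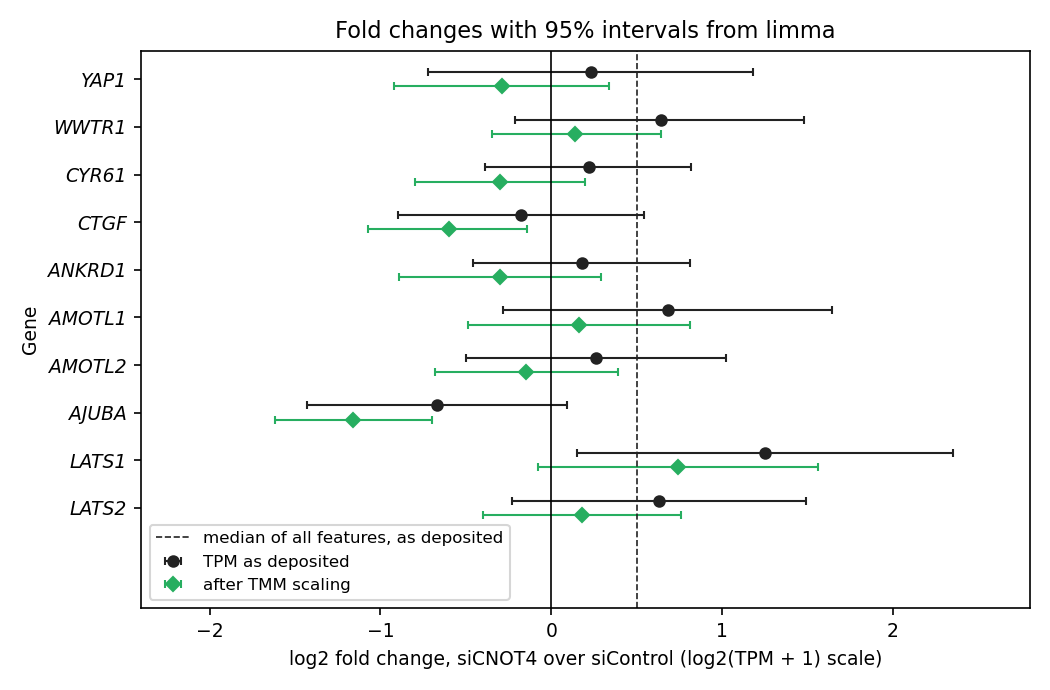
Fold changes (log2, siCNOT4 over siControl) of the 10 genes with 95% intervals from limma, for TPM as deposited (circles) and after TMM scaling (diamonds). The interval of *AJUBA* after scaling runs from -1.62 to -0.70, and for *YAP1*, *CYR61*, *ANKRD1* and *AMOTL2* the point estimate changes sign.

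Across the 10 genes, both the difference between the controls and the group difference varied with transcript length. Lengths of the longest coding transcript ran from 1979 nt (*ANKRD1*) to 8970 nt (*AMOTL1*). Between the siControl libraries, the difference of replicate 2 from replicate 1 had a Spearman rho of -0.964 and a Pearson r of -0.839 with length across the 10 genes. Across 13738 tested features with a matched transcript the rho was -0.619. *ANKRD1* and *CYR61*, with the shortest transcripts, did not lose TPM in replicate 2 (0.872 and 0.996 for replicate 1 over 2), while *AMOTL1* and *LATS1*, with the longest, differed 2.29-fold and 2.79-fold. For *CTGF*, at 2339 nt, replicate 1 exceeded replicate 2 by 0.67 on the log2(TPM + 1) scale, where the median of replicate 2 over 1 was -0.23 for features of 2000 to 3000 nt. The group difference rose with length across the same genes (rho 0.818, Pearson r 0.628, n = 10). It also did so over all features (rho 0.383, Pearson r 0.327). These correlations are across genes of the same 4 libraries and carry no p. For features of 1000 to 2000 nt the median group difference was 0.18, the same as for *ANKRD1*. At 2000 to 3000 nt it was 0.38, above *CYR61* (0.22) and *CTGF* (-0.18). For features of 3000 to 5000 nt the median group difference was 0.58, compared with -0.67 for *AJUBA* and 0.26 for *AMOTL2*. At 5000 to 7000 nt it was 0.71, above *YAP1* (0.23) and close to *WWTR1* (0.64) and *LATS2* (0.63). At 7000 to 10000 nt it was 0.84, between *AMOTL1* (0.68) and *LATS1* (1.25).

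**Figure D3:**
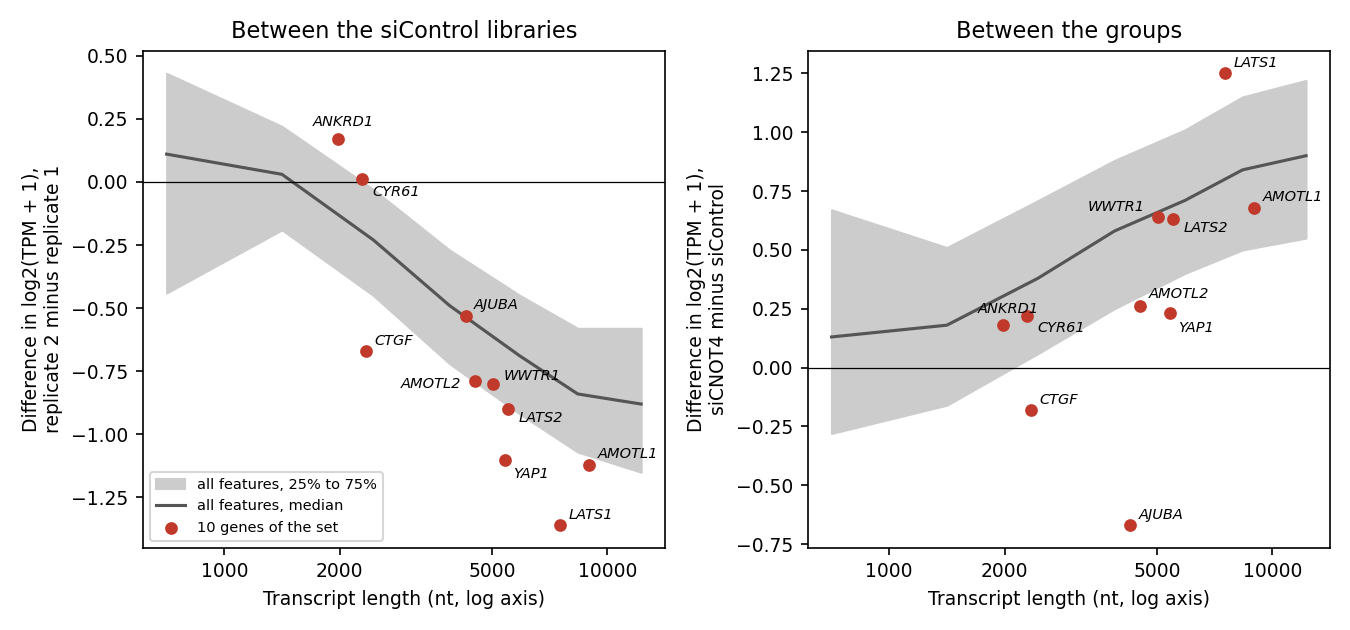
Transcript length (nt, log axis) against the difference in log2(TPM + 1) between the siControl libraries (left) and between groups (right). Points are the 10 genes, the line is the median of all features in 7 length classes and the band spans 25% to 75% of them. *AJUBA* at -0.67 lies well below the band on the right and inside it on the left.

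The wider pathway was described with 7 lists of 119 genes, of which 111 were tested. For TPM as deposited 13 were called, 11 higher and 2 lower in siCNOT4, beside 11.3% and 1.30% of all features. After TMM scaling 16 were called, 6 higher and 10 lower (632 and 615 of all features), so the balance of directions followed the scaling. After quantile normalization the split was 8 higher and 16 lower (1010 and 1169 of all features), and after trend removal 16 and 25 (1633 and 1856). Gene by gene, *CDH1*, *EGR1*, *EGR3*, *NT5E* and *ID3* were called in the same direction as deposited and under TMM scaling, quantile normalization and trend removal.

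In the Hippo kinase module, 0 of 15 genes were called, beside 12.6% of all features. The module's median change was 0.58, beside 0.50 for all features. An unadjusted limma p under 0.05 was found for 6 of the 15, beside 5974 of the 14208 features tested. The module's members of highest mean TPM over the 4 libraries were *MOB1A*, an activating partner of LATS kinases, and *TAOK1*, a kinase upstream of MST1 and MST2. *MAP4K4*, another upstream kinase, was close in that mean and exceeded *TAOK1* in both controls (47 and 35.6 TPM). *MOB1A* had 93.9 and 37.7 TPM in siControl and 134 and 124 TPM in siCNOT4 (change 1.10, adjusted p 0.0951). *TAOK1* had 41.5 and 12.2 against 74.4 and 71.2 TPM (change 1.64, adjusted p 0.0727). For *MOB1A* and *TAOK1* the controls differed more than 2-fold.

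Among binding partners of YAP1 and TAZ, 1 of 19 genes was called, beside 12.6% of all features, with a median of 0.41. *VGLL3*, a TEAD cofactor, rose from 0.972 and 0.379 TPM to 2.41 and 2.10 TPM (change 0.98, adjusted p 0.0462), a call that was lost after TMM scaling (0.70, adjusted p 0.0748). The 4 TEAD factors, looked at after their values were seen, did not pass the test as deposited. *TEAD1* had 16.5 and 6.31 TPM in siControl and 24.9 and 24.4 TPM in siCNOT4, and *TEAD3* had 15.2 and 6.73 against 15.9 and 19.0 TPM. *TEAD2* had 30 and 23.4 against 19.5 and 18.6 TPM, and *TEAD4* had 23.1 and 26.6 against 18.3 and 17.8 TPM. As deposited, *TEAD1* and *TEAD3* were thus higher without overlap, as were 66.4% of all features. *TEAD2* and *TEAD4* were lower without overlap, as were 10.6%, and *TEAD2* was called lower after TMM scaling (-0.98, limma adjusted p 0.0327).

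Of 17 further YAP/TAZ targets 14 were tested, since *MYOF*, *AXL* and *TGFB2* were below the minimum. Of these 14, 2 were called, beside 12.6% of all features, with a list median of 0.51. *NT5E*, the ectonucleotidase CD73, rose from 1.86 and 1.10 TPM to 7.01 and 6.65 TPM (change 1.68, limma adjusted p 0.0255; 1.28 and 0.0298 after TMM scaling). *F3*, tissue factor, rose from 3.10 and 2.33 TPM to 7.28 and 9.77 TPM (change 1.35, adjusted p 0.0403; 0.91 and 0.0478 after TMM scaling). The *F3* call was lost under quantile normalization, where *NT5E* was the only gene of the list called higher. At a minimum of 5 TPM 0 genes of the list were called. After TMM scaling *FJX1* (-1.17, adjusted p 0.0298) and *FOXF2* (-0.76, 0.0441), picked out after their values were seen, were called lower. After that scaling 4 of the 14 tested targets were thus called, beside 8.78% of all features. Their calls went in both directions, as did those of all features (632 higher and 615 lower).

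In the list of SRF targets and actin cytoskeleton genes, 2 of 22 tested genes were called, beside 12.6% of all features. The list median was 0.25. *ACTA2*, smooth muscle actin, rose from 40.2 and 42.5 TPM to 106 and 107 TPM (change 1.34, limma adjusted p 0.0227; 0.80 and 0.069 after TMM scaling). *TAGLN2*, an actin-binding protein, fell from 548 and 627 TPM to 351 and 360 TPM (change -0.72, adjusted p 0.0336; -1.27 and 0.0518 after TMM scaling). Both genes had close replicates in each group and no overlap. After TMM scaling neither was called, and 2 other genes of the list, *SRF* (-0.71, limma adjusted p 0.0468) and *FHL1* (adjusted p 0.0351), named after their values were seen, were called lower. TMM scaling called 8.78% of all features. After quantile normalization, with 15.3% of all features called, the split was 1 higher and 3 lower. After trend removal, with 25.4% called, it was 1 and 7. In both, *ACTA2* was the 1 called higher, and *TAGLN2* and *SRF* were among those called lower.

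Of 15 tested cell contact and polarity genes, 2 were called higher and 0 lower, beside 11.3% and 1.3% of all features. The list median was 0.83. *CDH1*, E-cadherin, rose from 1.17 and 0.635 TPM to 6.02 and 6.03 TPM (change 1.90, limma adjusted p 0.0227; 1.55 and 0.0298 after TMM scaling). *DCHS1*, a protocadherin ligand of the Fat family, rose from 2.08 and 0.803 TPM to 4.45 and 4.68 TPM (change 1.24, adjusted p 0.0491), a call lost after TMM scaling (0.0674).

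Of 19 immediate early genes, a class to which *CYR61* also belongs, 5 were called higher and 0 lower as deposited. Their median was 0.66, and 11.3% and 1.3% of all features were called higher and lower. After TMM scaling 3 of the 19 were called higher and 2 lower (*JUNB* and *MYC*, named after their values were seen). The numbers were 3 and 4 after quantile normalization, and 7 and 3 after trend removal. These settings called 8.78%, 15.3% and 25.4% of all features. *EGR1* rose from 14.4 and 7.41 TPM to 80.1 and 112 TPM (change 3.07, limma adjusted p 0.0227), and *EGR3* from 1.10 and 0.423 TPM to 4.62 and 4.61 TPM (1.70, 0.0244). *ZFP36*, an mRNA decay factor, rose from 8.81 and 7.02 TPM to 18.5 and 22.5 TPM (1.27, 0.0436), with an adjusted p of 0.0525 after TMM scaling. *CYR61* itself spanned 13.9 to 16.9 TPM over the 4 libraries as deposited, and 13.3 to 19.8 scaled TPM after TMM scaling. Of 7 tested SMAD targets, 0 were called higher and 1 lower as deposited, beside the same 11.3% and 1.3%. Their median was 0.37, with 5 changes above 0. Beside the shares of all features given above, TMM scaling and quantile normalization each called 2, both lower, and trend removal 3, all lower. *ID1*, named after its values were seen, was among them each time (-1.39, limma adjusted p 0.0475 after TMM scaling). *ID3*, an inhibitor of helix-loop-helix factors, fell from 110 and 86.3 TPM to 52.6 and 58.8 TPM (change -0.80, adjusted p 0.0497; -1.34 and 0.0298 after TMM scaling). This call was lost with a pseudocount of 0.1, without a filter, at a minimum of 5 TPM, without an eBayes trend and without either siCNOT4 library.

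**Figure D4:**
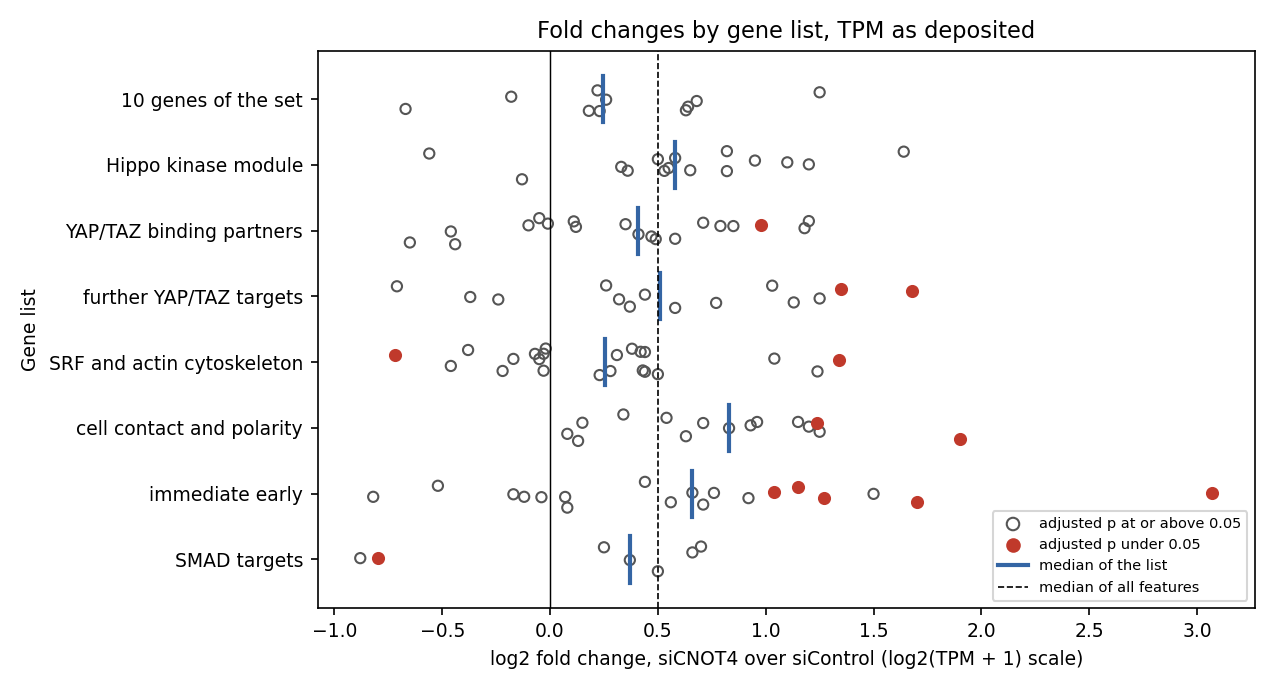
Log2 fold changes of the 10 genes and of the tested genes of 7 lists for TPM as deposited, 1 point per gene, filled where the limma adjusted p was under 0.05. None of the 10 genes is filled, and their median of 0.24 lies left of the dashed line at 0.50, the median of all features.

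In GRCh38 with the GENCODE 29 annotation, *YAP1* lies at chr11:102110461-102233423, *WWTR1* at chr3:149517235-149736714, *CYR61* at chr1:85580761-85583962, *CTGF* at chr6:131948176-131951373 and *ANKRD1* at chr10:90912096-90921276. *AMOTL1* lies at chr11:94706431-94876753, *AMOTL2* at chr3:134355874-134375479, *AJUBA* at chr14:22971174-22982642, *LATS1* at chr6:149658153-149718256 and *LATS2* at chr13:20973032-21061547. Some reads of these genes could belong to overlapping transcripts, because the library kit marked strand but the strand setting of the counting is not given in the sources used here. In GENCODE 29, exons of *YAP1*, *WWTR1*, *CTGF*, *AMOTL1* and *LATS1* overlap an antisense gene on the opposite strand, over 195 to 795 bases. Of these antisense genes *WWTR1-AS1* is listed in the tables, at 0.240 to 0.668 TPM. On the same strand, *AMOTL2* shares 187 exon bases with *RPL39P5* and *AJUBA* shares 50 with *AL132780.3*.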

How the data were processed

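The authors deposited TPM values per gene symbol, 1 table per library. The submitters' processing notes name FastQC 0.11.2, STAR 2.5.3a, featureCounts and hg19, with no role or order. Annotation, strand setting and filters are not given in the sources used here. TPM keeps no read totals. Depth was estimated from what 1 read is worth in features below 0.05 TPM, with GENCODE 29 transcript lengths (18438 features matched by symbol, 957 by an older symbol, 1062 not).

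Groups came from sample titles. limma 3.58.1 (R 4.3.3) with a trend compared log2(TPM + 1) in features of at least 1 mean TPM, without covariates. It was also run on simulated libraries with a large imposed change. Those libraries held no library-wide shift or trend with length, so the run cannot show how the test behaves where these are present. Fold changes understate low genes. The members and lists were chosen with earlier results of these data known. Genes named were all members, *CNOT4* and, per list, up to 3 called genes in each direction with the largest changes (or the 2 most abundant where none was called); others named are said to be so or carry calls only. TMM factors (trims of 30% and 5%, unweighted) were computed on TPM. Alternatives were a pseudocount of 0.1, no filter, a minimum of 5 TPM, scalings, a replicate block, no eBayes trend and omission of each library.

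Sequences are from RefSeq (GRCh38.p14), and no coordinate of hg19 is used.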

Additional observations from a re-analysis of the deposited data

How the results depend on the processing

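The signs of 6 genes depended on the scaling. After TMM scaling the changes were -0.29 for *YAP1*, -0.30 for *CYR61*, -0.30 for *ANKRD1* and -0.15 for *AMOTL2*. Quantile normalization gave -0.35, -0.36, -0.46 and -0.37 for the same genes. Trend removal gave -0.48, -0.16, -0.25 and -0.23, as well as -0.13 for *WWTR1* and -0.06 for *AMOTL1*. *AJUBA* passed the threshold after TMM scaling (-1.16), quantile normalization (-1.28) and trend removal (-1.19), and *CTGF* under quantile normalization (-0.81). The number of genes of the set called was 0 with a pseudocount of 0.1, no filter, a minimum of 5 TPM or no eBayes trend, and otherwise 1 (TMM scaling), 2 (quantile normalization) and 1 (trend removal). Of all features, 558 were called with a pseudocount of 0.1, 908 without a filter, 147 at a minimum of 5 TPM (which left out *CTGF* and *AMOTL2*), 3489 after trend removal and 756 without an eBayes trend. For the 7 lists together these counts were 6, 7, 2, 41 and 8, and 24 under quantile normalization. Apart from the scalings themselves, the cause was not tested.

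Replicates share only a number: deviations of the same-numbered libraries correlated at 0.171 across features, and nothing says that they were paired. With the replicate block 3655 features, 1 gene of the set (*LATS1*, 1.25, limma adjusted p 0.0197) and 31 list genes were called.

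Leaving out each library in turn, where the lone library is assumed to vary like the other group's pair, gave 450 to 11311 called features, 0 to 6 genes of the set and 4 to 91 list genes. The highest counts came without siControl replicate 1, when the spread rested on the siCNOT4 pair alone. Changes ranged from -0.32 to 0.78 for *YAP1*, 0.23 to 1.04 for *WWTR1*, -0.52 to 0.15 for *CTGF*, 0.12 to 1.24 for *AMOTL1*, -0.14 to 0.65 for *AMOTL2*, -0.93 to -0.40 for *AJUBA*, 0.57 to 1.93 for *LATS1* and 0.18 to 1.07 for *LATS2*. The log2 ratio of *CYR61* to *YAP1* ranged from -0.60 to 0.57, while the other 4 ratios kept their sign. Counting error was widest for the genes of fewest reads, *CTGF* (96 to 160 per library), *ANKRD1* (139 to 181) and *AMOTL2* (129 to 239).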
